A study of Mus musculus with 12 samples.

Results

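The lung metastasis that formed in mice whose primary tumour had received gamma rays was compared with the lung metastasis of unirradiated mice across all genes of a mouse array. Both came from NR-S1, a highly metastatic squamous cell carcinoma of C3H mice (C3H/HeMsNrs, male, per the labels) that was grown in the hind leg. In the gamma group, 8 Gy of gamma rays had been given to the primary tumour when it reached 7.5 mm, so the lungs and their metastases were not the target of the beam. In the unirradiated group the primary tumour grew on without radiation. Both lungs were sampled 2 weeks after the primary reached 7.5 mm, and tumour cells were cut out with a laser before RNA was extracted and amplified. Each metastasis RNA was hybridised on 2 two-colour arrays, once in each dye, against RNA of an unirradiated primary tumour taken 1 week after the same size was reached. The comparison thus uses 4 of the 12 arrays of the series and 2 of its 6 RNAs, and the 2 metastases never met on one array.

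For every gene and dye orientation, the log2 ratio of the unirradiated metastasis over the primary was subtracted from that of the gamma-group metastasis over the primary, and the 2 orientations were averaged. A positive difference means higher in the gamma-group metastasis. Each group is 1 RNA, and the labels do not say how many animals it came from, so there is no biological replicate and no p-value. The SD given with each difference (n = 2 dye orientations of the same RNAs) covers array and dye-swap error, leaves out the spread between animals, and also leaves out any dye effect of a gene that is the same in both metastases. A gene was called when its difference was at least 1 log2 unit (2-fold) in the same direction in each orientation, and "rose", "fell" and "changed" are used of called genes only. A gene was measured when its brightest probe was well above background in the metastasis channel on both arrays of at least 1 of the 2 metastases.

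A lung metastasis of a squamous carcinoma is a nest of keratinocyte-like tumour cells inside a tissue of alveoli, airways, vessels and pleura, and leukocytes enter it. Airway epithelium holds secretory cells, which release host-defence proteins, and ciliated cells, whose motile cilia are built under the transcription factor Foxj1. Interferon from T and NK cells switches on guanylate-binding proteins, immunity-related GTPases and the chemokines Cxcl9, Cxcl10 and Cxcl11, while lack of oxygen switches on glycolytic and other genes through hypoxia-inducible factors.

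In total, 17325 genes were measured, 15939 of them in both metastases on both arrays. Of these, 563 were called (3.25%), 320 higher (1.85%) and 243 lower (1.4%) in the gamma-group metastasis. The median difference over all measured genes was -0.03, and 5% of genes lay below -0.65 and 5% above 0.65, with a median SD of 0.05. The 4 arrays lay on 1 slide, none of their spots was saturated, 33 to 58 spots per array were left out as outliers, and in each channel 58.7 to 68.8% of spots stood well above background. A symbol was available for 468 called genes, 242 higher and 226 lower. Among all 563, 23 of the genes called higher were not well above background in the unirradiated metastasis on either array, whereas 0 of those called lower were in that position in the gamma-group metastasis. Just inside the threshold were Plin4 (1.003 and 1.13, metastasis in Cy5 first) and Rcor2 (1.005 and 1.06) on the higher side and Lair1 (-1.0007 and -1.12) and Atp6v0d2 (-1.10 and -1.002) on the lower side. Just outside were Acap1 (0.996 and 1.02), Fcrl1 (1.21 and 0.994), Stra6l (-1.04 and -0.997) and Cfhr2 (-0.995 and -1.15).

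**Figure D1:**
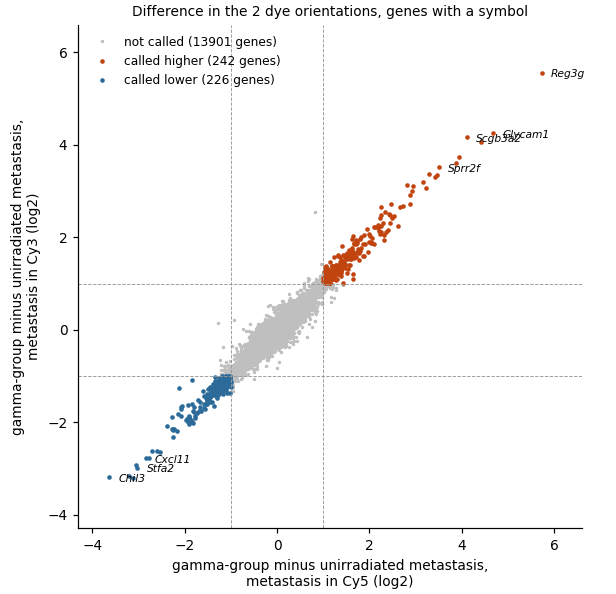
Difference between the gamma-group and the unirradiated lung metastasis for each measured gene with a symbol, with the metastasis in Cy5 (x axis, log2) and in Cy3 (y axis, log2). Red points are the 242 genes called higher, blue points the 226 called lower and grey points the rest, and dashed lines mark 1 log2 unit. The points follow the diagonal, from Chil3 at -3.64 and -3.20 to Reg3g at 5.73 and 5.57.

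The labels describe both RNAs as laser-cut tumour cells. Squamous markers were present in both: of 35 listed keratinocyte and epidermal envelope genes, 32 were well above background in the gamma-group metastasis and 31 in the unirradiated one. Counted over the 32 measured genes alone, these numbers are nearly fixed by the rule for a measured gene. The summed signal of the list was 1210570 and 977911 on the gamma-group arrays against 1091585 and 844799 on the unirradiated ones. Lung genes were present too. Sftpc, the surfactant protein of alveolar type 2 cells, had log2 ratios over the primary of 6.10 and 4.39 on the gamma-group arrays and 5.74 and 3.95 on the unirradiated arrays, metastasis in Cy5 first. Sftpa1 had 5.41 and 4.64 against 5.54 and 4.54, and Sftpb had 2.73 and 2.45 against 2.73 and 2.30. The metastasis channels alone, without the primary, gave Sftpa1 a log2 signal of 14.83 in the gamma group against 16.06 in the unirradiated one. In the same way Sftpc had 18.68 against 18.81 and Sftpb 10.90 against 10.55. Of 20 measured alveolar genes, 0 were called and 17 differences were negative. Their median difference was -0.13, with extremes of -0.92 (Akap5) and 0.40 (Sftpc). Red cell genes differed little as well (0 of 6 called, median -0.15, Hba-a1 -0.12 ± 0.03). In bulk RNA of this kind, fewer cells of a type and less RNA per cell cannot be told apart.

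Genes of airway epithelium were higher in the gamma-group metastasis. Of 20 measured genes of airway club and secretory cells, 10 rose and 0 fell, with a median of 1.07. Reg3g, a secreted antibacterial lectin, had the largest difference of all: its log2 ratio over the primary was 5.64 and 5.64 on the gamma-group arrays against -0.09 and 0.07 on the unirradiated ones. Reg3g had no signal well above background in the unirradiated metastasis, and its difference was 5.65 ± 0.12, or 50.2-fold on the ratio scale. Set against each other without the primary, the metastasis channels gave at least 82.2-fold, with the unirradiated signal taken at no less than the lowest one well above background; that scale is another one, and its value is no bound for the ratio difference. Bpifb1, an airway protein of the lipid-binding BPI family, was in the same position, at 2.95 and 2.81 against 0.02 and -0.20, which is 7.81-fold on the ratio scale and at least 16.2-fold between the channels.

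Scgb3a2, a secretoglobin of club cells, was already far above the primary in both metastases, at 8.20 and 8.31 in the gamma group and 4.08 and 4.14 in the unirradiated one, and differed by 4.14 ± 0.04. Bpifa1, a secreted defence protein of the upper airway, had 4.86 and 4.55 against 0.44 and 0.49, a difference of 4.24 ± 0.26. Muc5b, a mucin, rose by 2.44 ± 0.15 and Gabrp, a GABA receptor subunit of epithelia, by 2.18 ± 0.10. Scgb1a1, the classical club cell protein, did not pass the size rule, with 5.75 and 5.52 in the gamma-group metastasis against 4.96 and 4.81 in the unirradiated one (0.75 ± 0.06). Scgb3a1 was at 1.13 ± 0.05, and its call was lost with 5 of the 13 alternative settings that keep the size rule, the lowest value being 0.60 with log ratios scaled between arrays. For both genes the channels compared without the primary gave more: Scgb1a1 had a log2 signal of 16.53 against 13.16 and Scgb3a1 one of 14.83 against 11.49. Agr2, a disulphide isomerase of secretory cells that was on no list, had 3.66 and 3.38 against -0.21 and -0.22, where it was not well above background (3.74 ± 0.19, 13.3-fold, and at least 17.3-fold between the channels). The summed signal of the list was 347440 and 382961 on the gamma-group arrays against 149798 and 162331 on the unirradiated arrays.

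Genes of motile cilia were higher in the gamma-group metastasis too. Of 22 measured genes of ciliated cells, 11 rose, 0 fell and all 22 differences were positive, with a median of 1.07. Their median log2 ratio over the primary was 1.25 in the gamma-group metastasis, against 0.14 in the unirradiated one. Foxj1, the master factor of motile ciliogenesis, had 2.82 and 2.56 on the gamma-group arrays against 0.54 and 0.26 on the unirradiated ones (difference 2.29 ± 0.01). Dynlrb2, a dynein light chain, had 3.38 and 3.18 against 0.44 and 0.07 (3.02 ± 0.12). 1110017D15Rik had 3.47 and 3.34 against 0.65 and 0.21 (2.98 ± 0.22). Lrrc23, a radial spoke protein, rose by 2.80 ± 0.12, Tekt1, a tektin of the axoneme, by 2.28 ± 0.17, Cfap126 by 1.96 ± 0.10 and Tekt4 by 1.23 ± 0.03. The list was dim, with a summed signal of 13221 and 11777 in the gamma-group metastasis against 4186 and 3924 in the unirradiated one. All 22 genes were well above background on both gamma-group arrays, and 13 of them on both unirradiated arrays. The others were measured through the gamma group alone, which favours a positive difference for them. Over the alternatives that keep the size rule, which include a filter on both metastases, the list's median was at least 0.87.

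RFX factors, which act with Foxj1, bind the half-site GTTGCC. Searched on both strands, it was found in 57.1% of the 14 RefSeq promoter windows of the 11 ciliated genes that rose (10 had a window), in 56.0% of the 25 windows of the whole ciliated list and in 12.5% of all 32851 windows. A window spans 250 bases before to 50 after a gene start. A match is a description of the letters, not a binding site. The 250 bases before the start of the 2 ciliated genes with the largest differences are shown 5′ to 3′ on the gene's strand, from RefSeq on GRCm38.p6, with matches in capitals on either strand.
Dynlrb2, chr8:116504765-116505014, plus strand: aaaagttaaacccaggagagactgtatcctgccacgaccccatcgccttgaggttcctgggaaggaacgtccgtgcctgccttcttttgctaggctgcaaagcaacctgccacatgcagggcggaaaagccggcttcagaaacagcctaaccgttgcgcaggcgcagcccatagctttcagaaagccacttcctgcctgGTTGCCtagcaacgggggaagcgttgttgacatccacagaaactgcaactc
1110017D15Rik, chr4:41507765-41508014, minus strand: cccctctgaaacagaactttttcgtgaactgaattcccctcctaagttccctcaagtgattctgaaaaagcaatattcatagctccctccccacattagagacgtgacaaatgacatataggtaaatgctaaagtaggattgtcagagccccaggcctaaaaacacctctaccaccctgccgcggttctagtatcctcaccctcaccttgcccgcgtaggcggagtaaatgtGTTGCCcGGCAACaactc
In Dynlrb2 the match starts 51 bases before the gene start, and 1110017D15Rik holds 2 matches on opposite strands, the first starting 18 bases before it.

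B cell and lymphoid tissue genes were also higher in the gamma-group metastasis. Of 34 measured genes of B and plasma cells, 15 rose and 0 fell, with a median of 0.98. Ms4a1, which encodes CD20, had log2 ratios over the primary of 5.26 and 5.65 on the gamma-group arrays against 3.01 and 3.18 on the unirradiated arrays (difference 2.36 ± 0.16, but 0.89 and not called with Agilent's processed ratio). Tnfrsf13c, the BAFF receptor, rose by 1.96 ± 0.12 and Cr2, a complement receptor of B cells and follicular dendritic cells, by 2.46 ± 0.29. Cd79a, a chain of the B cell receptor complex, was only just above background in the gamma-group metastasis and not in the unirradiated one (0.47 ± 0.09, not called). Bank1, a B cell scaffold protein, rose by 1.78 ± 0.11 by its brightest probe, whereas its other measured probe gave 0.58.

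The heavy chain gene Ighg1 had 3.49 and 3.20 in the gamma-group metastasis against 0.27 and 0.13 in the unirradiated one, a difference of 3.15 ± 0.11 (5.35 between the channels without the primary). H2-Oa, a class II chaperone of B cells, was the only one of 11 class II genes to be called (1.28 ± 0.08), and the median of that list was -0.09, or 0.06 when all probes of a gene were averaged. The summed signal of the B cell list was 107699 and 110793 on the gamma-group arrays against 61056 and 60525 on the unirradiated ones.

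Chemokines that organise lymphoid tissue went with them. Ccl19, a ligand of Ccr7 made by lymphoid stroma and dendritic cells, had 5.84 and 5.48 in the gamma-group metastasis against 1.90 and 1.75 in the unirradiated one (3.84 ± 0.14). Cxcl13, the B cell attractant, had 4.18 and 3.97 against 0.89 and 0.61 (3.32 ± 0.06, but 1.498 and not called with Agilent's processed ratio), and its receptor gene Cxcr5 rose by 1.75 ± 0.06 (0.95 and not called with Agilent's processed ratio). Glycam1, an L-selectin ligand of high endothelial venules, had 4.71 and 4.36 against 0.04 and 0.11 and likewise had no signal well above background in the unirradiated metastasis; it differed by 4.46 ± 0.30, or 22.1-fold, and by at least 63.7-fold between the channels. Of the 22 measured genes of dendritic cells and lymphoid stroma, 5 rose and 0 fell (Glycam1, Ccl19, Cxcl13, Cr2 and Fcer2a), with a median of 0.22; Fcer2a was at 1.13, but at 0.49 and not called with Agilent's processed ratio. The defining dendritic cell genes Flt3 (0.26 ± 0.04), Batf3 (-0.23 ± 0.03) and Zbtb46 (-0.22 ± 0.16) were not called.

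T and NK cell genes were split. Of 35 measured, 4 rose (Lck, Cd5, Cd6 and Lat, by 1.29, 1.28, 1.23 and 1.10) and 1 fell, and the median was 0.10. All 4 risen genes, which act at the T cell receptor, lost their call when log ratios were scaled between arrays, with values of 0.79 to 0.91. The receptor chains Cd3d (0.53 ± 0.25) and Cd3g (0.52 ± 0.16) were not called. Cd3e was near the primary's level on all 4 arrays (-0.05 and 0.06 against 0.03 and -0.12). Its probe was dim, with a log2 signal of 6.90 in the gamma group against 6.66 in the unirradiated one. The 1 gene that fell was Ifng, interferon gamma, with 0.69 and 0.69 in the gamma-group metastasis against 2.93 and 2.85 in the unirradiated one (-2.20 ± 0.06).

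**Figure D2:**
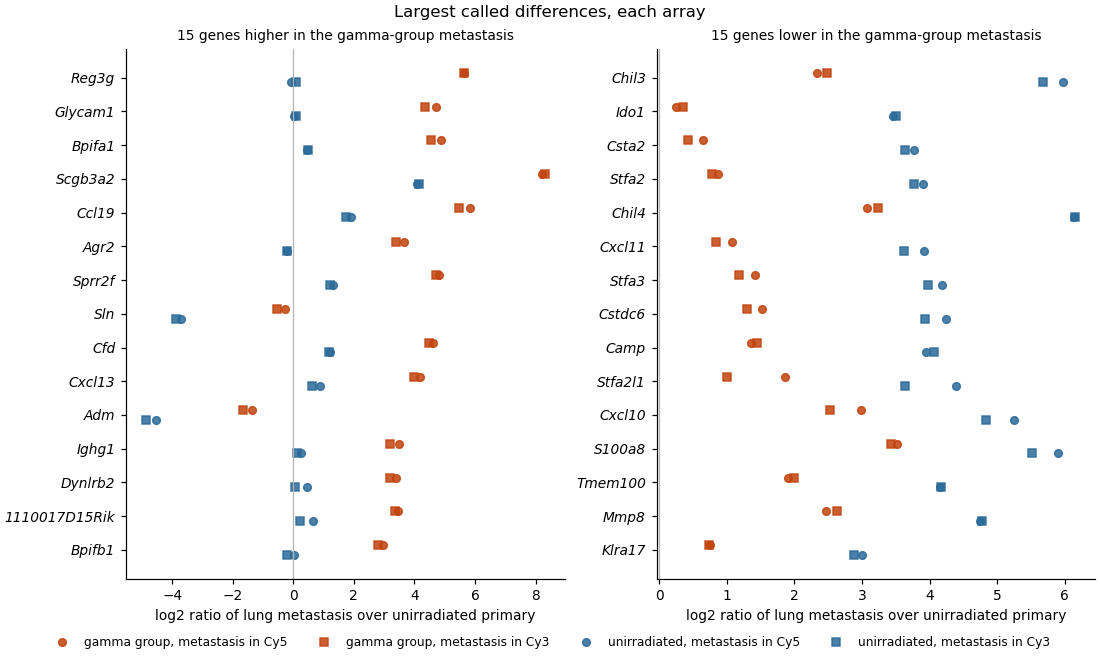
Log2 ratio over the unirradiated primary (x axis) for the 15 genes with the largest called differences each way, on each of the 4 arrays. Red is the gamma-group metastasis and blue the unirradiated one; circles have the metastasis in Cy5 and squares in Cy3. For each of the 30 genes, both gamma-group values lie to the same side of both unirradiated values. The choice of genes with large differences in both orientations nearly fixes this.

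Markers of heart muscle, which in mice also sheathes the pulmonary veins, and of fat were higher in the gamma-group metastasis as well. Of 13 measured cardiac and pulmonary vein genes, 7 rose and 0 fell, with a median of 1.16. Sln, which encodes the calcium pump regulator sarcolipin, was below the primary's level in both, at -0.26 and -0.54 in the gamma group against -3.72 and -3.88 in the unirradiated one (3.40 ± 0.09). Myl7, an atrial myosin light chain, had 2.73 and 2.31 against 0.51 and 0.24 (2.14 ± 0.11). Tnni3, cardiac troponin I, rose by 1.64 ± 0.01, Myl4, another atrial light chain, by 1.54 ± 0.10, and Csrp3, a muscle LIM protein, by 1.26 ± 0.08. Nppa, the atrial natriuretic peptide, rose by 1.33 ± 0.09 by its brightest probe and gave 0.29 by another. Skeletal muscle genes did not move as a list (1 of 21 rose, which was Sln, and the median was 0.14); Acta1 was at -0.09 ± 0.00 and Actn3 at -0.11 ± 0.12.

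Among 13 measured adipocyte genes, 6 rose and 1 fell, with a median of 0.89. Cfd, or adipsin, a complement protease made by fat cells, had 4.63 and 4.48 in the gamma-group metastasis against 1.20 and 1.17 in the unirradiated one (3.37 ± 0.08). Car3, a carbonic anhydrase of fat and muscle, had 0.41 and 0.23 against -1.92 and -1.71 (2.13 ± 0.28). Cidea, a lipid droplet protein, rose by 1.88 ± 0.02, Fabp4, a fatty acid carrier, by 1.35 ± 0.02, and Adipoq, adiponectin, by 1.24 ± 0.05. Plin1, which coats lipid droplets, was at 0.67 ± 0.25 and not called. The gene that fell was Lpl, lipoprotein lipase (-1.19 ± 0.00), which macrophages and other cells also make.

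Whether tissue around the metastasis was part of what the laser cut was not measured. Over the cardiac list the summed signal was 9974 and 9106 on the gamma-group arrays against 5088 and 4828 on the unirradiated ones, and over the adipocyte list 20722 and 19144 against 18356 and 16236. Muc5b, Cr2, Csrp3 and Adipoq were well above background on 1 of the 2 unirradiated arrays. On both unirradiated arrays, 16 of 20 airway, 29 of 34 B cell, 10 of 13 cardiac and 10 of 13 adipocyte genes were well above background. All genes of these lists were so on both gamma-group arrays. The rest were thus measured through the gamma group alone, which favours a positive difference for them. The part of admixed airway, lymphoid, muscle or fat cells in these differences was not tested.

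Hypoxia-induced genes were less far below the primary in the gamma-group metastasis than in the unirradiated one. Of 30 measured, 12 rose and 1 fell, with a median of 0.79. Over the primary, the list's median log2 ratio was -0.79 in the gamma-group metastasis against -1.39 in the unirradiated one. Adm, the vasodilator adrenomedullin, had -1.38 and -1.67 against -4.53 and -4.86 (3.17 ± 0.02). Egln3, an oxygen-sensing prolyl hydroxylase, had -1.27 and -1.22 against -3.93 and -3.87 (2.66 ± 0.01). Mgarp, a mitochondrial protein, had -2.10 and -2.40 against -4.43 and -4.46 (2.19 ± 0.19). Bnip3, which promotes mitophagy, rose by 1.88 ± 0.11, Ndrg1 by 1.80 ± 0.10 and Ankrd37 by 1.58 ± 0.01. All of these remained below the primary's level in both metastases. The gene that fell was the collagen cross-linker Lox (-1.497 ± 0.04).

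Glycolysis genes followed with smaller differences. Of 18 measured, 4 rose and 0 fell, 17 of the differences were positive, and the median was 0.58. Slc16a3, which exports lactate, had -0.91 and -0.87 in the gamma-group metastasis against -2.29 and -2.34 in the unirradiated one (1.42 ± 0.07). The enolase Eno2 rose by 1.10 ± 0.02. The aldolases Aldoc (1.13 ± 0.05) and Aldoa (1.07 ± 0.08) lie near the threshold: another probe of Aldoc gave 0.03, and Aldoa lost its call in 6 of the 13 alternatives that keep the size rule, with values of 0.73 to 1.04.

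The core letters of the hypoxia response element, ACGTG, were found on either strand in 66.7% of the 12 promoter windows of the 12 hypoxia genes that rose (11 had a window), in 62.1% of the 29 windows of the whole list and in 19.6% of all windows. Egln3 and Mgarp, the 2 such genes with the largest differences whose shown bases hold a match, are given in the same way, with the match in capitals.
Egln3, chr12:54203875-54204124, minus strand: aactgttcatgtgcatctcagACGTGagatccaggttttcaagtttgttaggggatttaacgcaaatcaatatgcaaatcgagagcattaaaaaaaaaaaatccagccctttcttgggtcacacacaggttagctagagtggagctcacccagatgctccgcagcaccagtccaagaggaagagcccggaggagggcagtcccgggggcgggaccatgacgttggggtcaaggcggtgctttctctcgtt
Mgarp, chr3:51396548-51396797, minus strand: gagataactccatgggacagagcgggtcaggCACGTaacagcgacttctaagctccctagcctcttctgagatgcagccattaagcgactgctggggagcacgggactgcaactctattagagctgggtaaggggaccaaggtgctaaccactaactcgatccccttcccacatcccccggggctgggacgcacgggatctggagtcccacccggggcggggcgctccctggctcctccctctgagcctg
The match starts 229 bases before the start of Egln3 and, on the opposite strand, 219 bases before that of Mgarp.

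**Figure D3:**
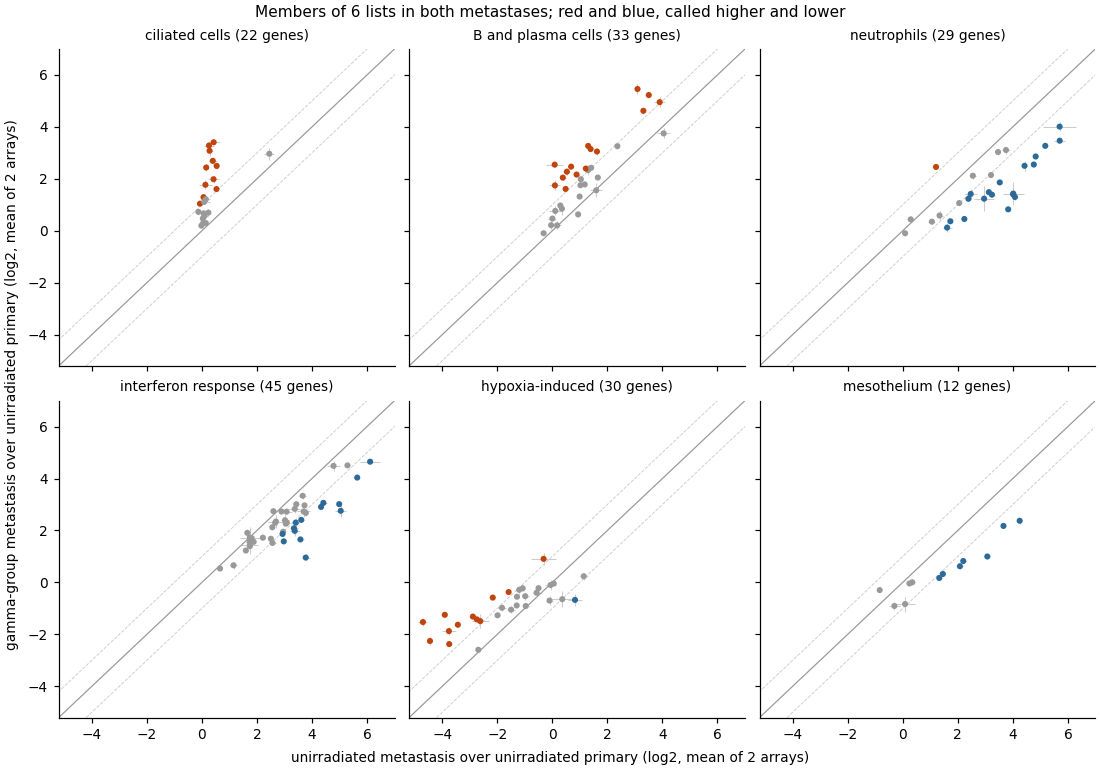
Log2 ratio over the unirradiated primary of each gene of 6 lists, in the gamma-group metastasis (y axis) against the unirradiated metastasis (x axis), mean of 2 arrays with bars spanning the 2 arrays. Red and blue are genes called higher and lower, the solid line marks equal values and dashed lines 1 log2 unit. Ciliated genes called higher lie near 0 on the x axis, hypoxia genes called higher lie below 0 on it, and the neutrophil, interferon and mesothelial genes called lower lie above 0 on it. The B cell panel shows 33 of the 34 measured genes, without 1 that has no symbol in RefSeq's table.

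Neutrophil genes were lower in the gamma-group metastasis. Of 29 measured, 19 fell and 1 rose, with a median of -1.64, the lowest of the 35 lists. Both metastases lay above the primary in these genes, with a median log2 ratio of 1.42 in the gamma group against 3.21 in the unirradiated one. S100a8, a calprotectin subunit, had 3.51 and 3.42 against 5.90 and 5.51 (-2.24 ± 0.21). Its partner S100a9 had 4.17 and 3.85 against 6.29 and 5.11 (-1.69 ± 0.61), and this call was lost when the metastasis channels were compared without the primary (-0.87). Camp, the antimicrobial cathelicidin, had 1.36 and 1.45 against 3.95 and 4.07 (-2.61 ± 0.02, but -1.31 and not called with Agilent's processed ratio). Mmp8, neutrophil collagenase, had 2.47 and 2.63 against 4.75 and 4.78 (-2.21 ± 0.09).

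Stefins, the small inhibitors of cysteine proteases that mouse neutrophils make in quantity, were lower: 5 of 7 measured genes of stefins and cystatin A, a family picked after its values were seen, fell. Csta2 had 0.64 and 0.42 in the gamma-group metastasis against 3.77 and 3.63 in the unirradiated one (-3.17 ± 0.06). Stfa2 was lower by -3.01 ± 0.02, Stfa3 by -2.78 ± 0.01, Cstdc6 by -2.67 ± 0.06 and Stfa2l1 by -2.58 ± 0.07, while Cstdc2 (-0.65) and Csta1 (-0.37) were not called. These genes are close copies of one another, and their probes may share signal. Ltf, lactoferrin, which glandular epithelium also makes, was the 1 gene of the list that rose (1.25 ± 0.03). The summed signal of the neutrophil list was 238391 and 374577 on the gamma-group arrays against 477022 and 815552 on the unirradiated ones. Much of this sum is S100a9 alone, with a log2 signal of 17.80 in the gamma group against 18.67 in the unirradiated one.

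Genes of macrophages and monocytes were lower as well: 10 of 36 fell and 1 rose, with a median of -0.86. Chil3, a chitinase-like protein of lung macrophages and neutrophils, had the lowest difference of all genes with a symbol, with 2.34 and 2.48 in the gamma-group metastasis against 5.97 and 5.68 in the unirradiated one (-3.42 ± 0.31). Its relative Chil4 had 3.08 and 3.24 against 6.13 and 6.16 (-2.99 ± 0.09). Fcgr4, an Fc receptor, fell by 1.498 ± 0.03, Adgre1, a surface marker of mouse macrophages, by 1.25 ± 0.03, Itgam, or CD11b, by 1.23 ± 0.04 and Tyrobp, a signalling adaptor, by 1.19 ± 0.03. Cd68 (-0.64 ± 0.02) and Csf1r (-0.48 ± 0.00), which also mark macrophages, were not called. The gene that rose was Fabp4, which adipocytes share. The summed signal of the list was 228477 and 246871 on the gamma-group arrays against 442744 and 510674 on the unirradiated ones.

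Alternative activation genes did not move one way. Of 15 measured, 5 fell (Chil3, Chil4, Ccl24, Mrc1 and F13a1) and 1 rose, with a median of -0.35. Retnla, a secreted resistin-like protein of such macrophages and of airway cells, was the one that rose, with 4.64 and 4.55 against 2.11 and 2.10 (2.49 ± 0.05, but 0.96 and not called with Agilent's processed ratio, and 6.19 between the channels without the primary). Arg1, arginase, was not called (0.34 ± 0.05). Klra17, a Ly49 family receptor on no list, had 0.75 and 0.73 against 3.002 and 2.88 (-2.20 ± 0.07). Of 41 chemokine and cytokine genes, 2 rose (Ccl19 and Cxcl13) and 5 fell: Ifng, Il1b (-1.22 ± 0.03), the monocyte attractants Ccl2 (-1.16 ± 0.01) and Ccl7 (-1.11 ± 0.03), and Il6 (-1.10 ± 0.03). The complement subunits C1qa (-1.12 ± 0.01) and C1qb (-1.05 ± 0.01), which macrophages make, fell, and they were 2 of 19 complement genes, the only other call being the rise of Cfd.

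Interferon-induced genes were lower in the gamma-group metastasis. Of 45 measured, 14 fell, 0 rose and 43 differences were negative, with a median of -0.76. Both metastases were above the primary, by a median of 2.30 in the gamma group against 3.05 in the unirradiated one. Cxcl11 had 1.08 and 0.84 on the gamma-group arrays against 3.92 and 3.62 on the unirradiated ones (-2.81 ± 0.04). Cxcl10 had 2.98 and 2.53 against 5.25 and 4.84 (-2.29 ± 0.04), and Cxcl9 had 2.98 and 3.05 against 5.05 and 4.92 (-1.97 ± 0.14, or -3.67 between the channels without the primary). These 3 chemokines call Cxcr3-bearing T and NK cells.

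Gbp6, a guanylate-binding protein, fell by 1.92 ± 0.14 and Igtp, an immunity-related GTPase, by 1.61 ± 0.13. Iigp1, another such GTPase, had 4.63 and 4.67 in the gamma-group metastasis against 6.47 and 5.76 in the unirradiated one, and the gap between the last 2 arrays gives it a wide error (-1.46 ± 0.53). Its call was lost with a normexp offset of 0 (-1.32), Agilent's processed ratio (-1.24) and the authors' value table (-1.25). Ido1, an interferon-induced enzyme that breaks down tryptophan and was on no list, had 0.26 and 0.35 against 3.46 and 3.51 (-3.18 ± 0.03). None of 16 measured class I antigen presentation genes was called, but all 16 differences were negative, with a median of -0.56. Among them, the peptide transporter Tap1 was at -0.97 ± 0.00, the immunoproteasome subunit Psmb9 at -0.89 ± 0.02 and H2-D1 at -0.77 ± 0.11.

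The interferon-stimulated response element, searched as GAAA, any 2 bases and GAAA on either strand, was found in 61.5% of the 13 promoter windows of the 14 interferon genes that fell (11 had a window), in 47.4% of the 38 windows of the whole list and in 3.44% of all windows. Cxcl10 and Igtp, the 2 such genes with the largest differences whose shown bases hold a match, are given with the element in capitals. Cxcl11, Cxcl9 and Gbp6 had larger differences than Igtp but no window or no match to show.
Cxcl10, chr5:92348890-92349139, minus strand: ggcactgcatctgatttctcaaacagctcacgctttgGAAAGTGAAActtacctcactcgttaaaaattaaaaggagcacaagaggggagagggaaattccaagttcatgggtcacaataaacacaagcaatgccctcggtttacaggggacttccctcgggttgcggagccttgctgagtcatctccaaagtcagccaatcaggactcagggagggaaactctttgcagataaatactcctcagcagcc
Igtp, chr11:58199306-58199555, plus strand: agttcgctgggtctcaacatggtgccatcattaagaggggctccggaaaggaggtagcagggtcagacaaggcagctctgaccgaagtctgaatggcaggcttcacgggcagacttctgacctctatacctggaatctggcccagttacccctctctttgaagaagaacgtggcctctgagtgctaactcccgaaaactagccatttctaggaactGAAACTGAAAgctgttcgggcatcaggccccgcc
The element starts 213 bases before the start of Cxcl10 and 34 bases before that of Igtp.

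Genes of the mesothelium, the lining of the pleura, were lower in the gamma-group metastasis. Of 12 measured, 7 fell and 0 rose, with a median of -1.14. Upk1b, a uroplakin of mesothelial cells, had 0.90 and 1.10 on the gamma-group arrays against 3.17 and 2.98 on the unirradiated ones (-2.07 ± 0.27). Rspo1, a Wnt potentiator, had 2.26 and 2.49 against 4.34 and 4.16 (-1.87 ± 0.29). Gpm6a fell by 1.48 ± 0.10, mesothelin (Msln) by 1.46 ± 0.01 and the transcription factor Wt1 by 1.16 ± 0.03. Upk3b was at -1.38 ± 0.09, and at -0.09 with Agilent's processed ratio. The summed signal of the list was 172967 and 143976 in the gamma-group metastasis against 274192 and 245151 in the unirradiated one, and the part of pleural cells in the difference was not tested.

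Vessel genes were partly lower: 5 of 31 endothelial genes fell and 0 rose, with a median of -0.58. Calcrl, the receptor of adrenomedullin, had 3.92 and 3.86 in the gamma-group metastasis against 5.86 and 5.81 in the unirradiated one (-1.94 ± 0.01), although another probe of it gave -0.58. Tmem100, a lung endothelial membrane protein, differed by -2.22 ± 0.05 by its brightest probe and by -0.46 by another. Clec14a (-1.10 ± 0.07), Ly6c1 (-1.11 ± 0.10) and the lymphatic marker Lyve1 (-1.02 ± 0.01) fell by amounts close to the threshold. The defining endothelial genes Pecam1 (-0.37 ± 0.05), Cdh5 (-0.50 ± 0.02) and Vwf (-0.67 ± 0.03) were not called. Between the channels without the primary, Vwf gave -1.09. Of 14 platelet genes, 1 fell, the receptor Clec1b (-1.23 ± 0.07), with a median of -0.37. Of 13 genes of eosinophils, mast cells and basophils, 1 rose, the eosinophil granule protein Prg3 (1.07 ± 0.07), with a median of -0.27. In the unirradiated metastasis Prg3 had no signal well above background (at least 2.31-fold between the channels), and its call was lost with median centring (1.23) and with scaled ratios (0.90). Of 9 neuroendocrine and nerve genes, 1 rose, the glial S100b (1.13 ± 0.10), with a median of 0.10, or -0.09 when all probes of a gene were averaged.

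Matrix genes shifted the same way by less. Of 23 collagens and fibrillar matrix genes, 4 fell and 0 rose, with a median of -0.51: Col6a1 had 0.22 and 0.33 in the gamma-group metastasis against 1.72 and 1.62 in the unirradiated one (-1.39 ± 0.15), Col6a2 fell by 1.33 ± 0.09, Col5a2 by 1.24 ± 0.03 and the proteoglycan Bgn by 1.23 ± 0.03. The main fibrillar collagen Col1a1 was at -0.10 ± 0.05. Of 22 fibroblast genes, 1 fell, the growth factor receptor Pdgfra (-1.13 ± 0.03), with a median of -0.43. Among 27 genes of epithelial to mesenchymal transition and invasion, 4 fell and 0 rose, with a median of -0.65. Timp1, an inhibitor of metalloproteases, had -0.96 and -0.93 against 0.70 and 0.63 (-1.61 ± 0.07). Mmp9, a gelatinase that neutrophils also carry, fell by 1.49 ± 0.00, osteopontin (Spp1) by 1.16 ± 0.08 and fibronectin (Fn1) by 1.06 ± 0.01. Spp1 (-0.93) and Fn1 (-0.965) lost their calls with log ratios scaled between arrays. Fn1 also lost its call when all probes of a gene were averaged (-0.74). Smooth muscle genes were not called (0 of 16; median 0.02, which turned negative under 3 of the 13 alternatives that keep the size rule), with Acta2 at -0.03 ± 0.00.

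**Figure D4:**
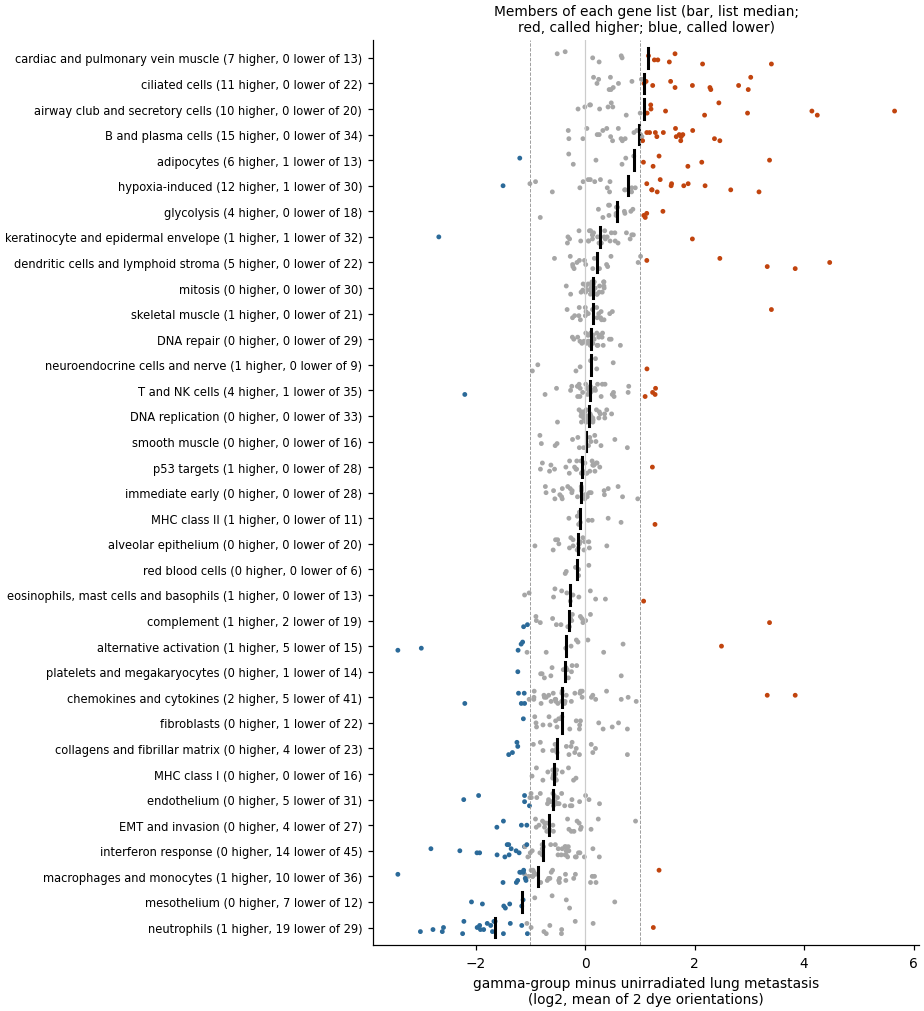
Difference between the gamma-group and the unirradiated lung metastasis (x axis, log2, mean of 2 dye orientations) for the measured genes of each of 35 lists. Dots are genes, red if called higher and blue if called lower, bars are list medians, dashed lines mark 1 log2 unit, and the labels give the counts. Medians run from -1.64 for neutrophils to 1.16 for cardiac and pulmonary vein muscle, and proliferation lists stay inside 1 log2 unit; 1 B cell gene without a symbol is counted but not drawn.

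Over all measured genes, 3.25% were called. The keratinocyte, proliferation, DNA repair, immediate early and p53 target lists are each too short for their counts to be set apart from that share. Which cells the transcripts of these lists came from was not measured. Of 32 keratinocyte and epidermal envelope genes, 1 rose and 1 fell, with a median of 0.26. Krt15, a keratin of basal cells, had 1.97 and 1.49 in the gamma-group metastasis against -0.08 and -0.38 in the unirradiated one (1.96 ± 0.12), and the gene that fell was the stefin Cstdc6. Sprr2f, a small proline-rich protein of the epidermal envelope that was on no list, had 4.82 and 4.72 against 1.32 and 1.21 (3.51 ± 0.01). In the proliferation lists 0 genes were called: the median was 0.14 over 30 mitosis genes (from -0.34 to 0.35) and 0.07 over 33 DNA replication genes (from -0.50 to 0.48), and both medians turned negative with median centring. Of 29 DNA repair genes 0 were called (median 0.10), and of 28 immediate early genes 0 were called (median -0.07, Egr1 highest at 0.96 ± 0.04). Among 28 targets of p53, the stress-activated tumour suppressor, only Sesn1 was called (1.23 ± 0.00), and the median was -0.05.

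The same genes were set beside the carbon-ion group, whose primary had received 5 Gy and whose metastasis was sampled at the same time, and beside the gamma-irradiated primary 1 week after its dose. The carbon-group difference is taken against the same unirradiated metastasis and so shares any deviation of that RNA. Its arrays lay on another slide than the other metastases, so slide and group cannot be told apart there. By the same rule 706 of 16697 genes (4.23%) were called in the carbon-group metastasis, 1.85% higher and 2.38% lower, and 543 of 15383 (3.53%) in the gamma-irradiated primary, 2.26% higher and 1.27% lower. Neutrophil genes had medians of -1.64 in the gamma-group and -2.54 in the carbon-group metastasis, ciliated genes 1.07 and 1.26, hypoxia genes 0.79 and 1.15, mesothelial genes -1.14 and -1.30, and interferon genes -0.76 and -0.46. Airway club and secretory genes had 1.07 (10 of 20 rose) and 0.85 (9 of 19 rose).

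Other lists had medians of opposite sign or unequal size. The B cell list had a median of 0.98 in the gamma-group metastasis (15 of 34 rose) and -0.33 in the carbon-group metastasis (0 of 29 rose, 1 fell). Ms4a1 differed from the unirradiated metastasis by 2.36 in the gamma group and -1.39 in the carbon group, Ccl19 by 3.84 and 0.09, and Cxcl13 by 3.32 and -0.39. The cardiac list had 1.16 over 13 genes and 0.15 over 10. The adipocyte list had 0.89 over 13 genes and -0.11 over 10, with Cfd at 3.37 and -0.66. These medians are over unlike sets of genes, and Csrp3 and Adipoq were not measured in the carbon-group comparison. Sprr2f was at 3.51 in the gamma group and -0.54 in the carbon group. Whether the gamma and carbon groups differ beyond animal spread was not tested, with 1 RNA each.

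The interferon list had medians of opposite sign in the metastasis comparison and the primary comparison, whose baselines differ. In the gamma-group metastasis 14 of 45 interferon genes fell and 0 rose relative to the unirradiated metastasis, with a median of -0.76, whereas in the gamma-irradiated primary 39 of 45 rose over the unirradiated primary and 0 fell, with a median of 2.09. Igtp stood at -1.61 in the metastasis comparison and 4.77 in the primary comparison, and Cxcl9 at -1.97 and 4.36. Class I genes had medians of -0.56 in the metastasis and 2.04 in the primary, where 13 of 17 rose. With the unirradiated primary as the shared baseline, the interferon median was 2.30 in the gamma-group metastasis and 3.05 in the unirradiated metastasis. The class I median was 1.47 and 2.04 in the same order. On that baseline both lists were thus above 0 in the irradiated primary and in both metastases. The hypoxia list had 0.79 in the metastasis and -0.33 in the primary, and the skeletal muscle list 0.14 (21 genes) and -2.06 (26 genes). The airway list had 1.07 over 20 genes in the metastasis and 1.26 over 10 in the primary, where 5 rose, so the sets differ. Reg3g, Scgb3a2, Bpifa1, Bpifb1, Muc5b and Scgb3a1 were not measured in the primary comparison, and Scgb1a1 was at -0.02 there. Gabrp stood at 2.18 in the metastasis and 2.19 in the primary, and Agr2 at 3.74 and 1.57. The irradiated tissue was the primary alone, and the 2 comparisons differ in site and in time after the dose.

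**Figure D5:**
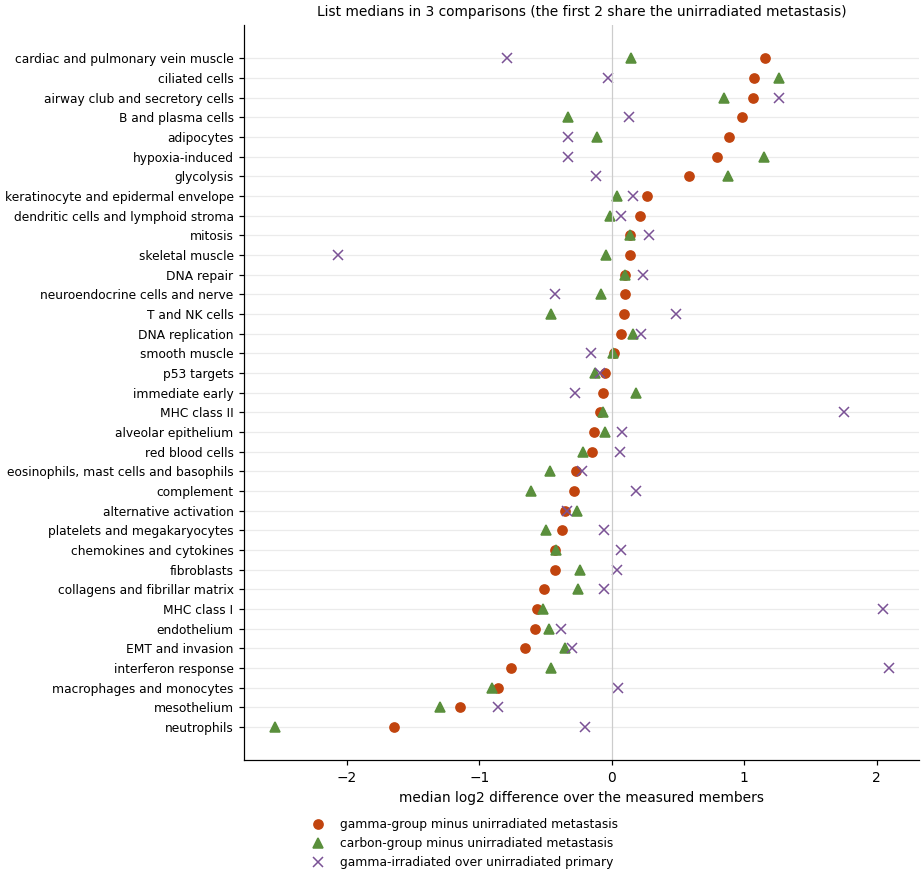
Median log2 difference over the measured genes of each of 35 lists (x axis). The genes measured can differ between the comparisons. Red circles are the gamma-group minus the unirradiated metastasis, green triangles the carbon-group minus the same unirradiated metastasis, and purple crosses the gamma-irradiated over the unirradiated primary. The B cell, adipocyte and cardiac lists lie near 1 in the first comparison and between -0.33 and 0.15 in the second, and the interferon and class I lists lie above 2 in the third and below 0 in both metastasis comparisons.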

How the data were processed

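The deposited scanner files hold raw spot intensity values (mean signal and median local background in Cy5 and Cy3) of 45018 spots, made with Agilent Feature Extraction 9.1.3.1 per the file headers. They also hold a log10 ratio of Cy5 over Cy3, which the authors' software made from background-detrended, dye-normalized signals, and the authors' value table equals it within 0.005. Flags per spot are as deposited. No genome build is given in the sources used here.

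From the intensities, background was corrected with limma 3.58.1 in R 4.3.3 (normexp, offset 50) and ratios were loess-normalized within arrays, with control spots and outlier spots at weight 0. Outlier spots were then left out, and spots of a probe were averaged. Each gene was represented by its probe of highest mean log intensity. Ratios were turned so that the metastasis is on top, with dyes from the labels. Of 41174 probes, RefSeq's table named 22951 through an accession, 6659 through the current symbol and 3109 through a former one; the 8455 others have only the file's name and are not named here. Intensities limit precision through the number of arrays, 2 per RNA. A dye swap counts as 1 replicate.

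Named are the 15 highest and 15 lowest called genes, up to 6 called genes of each list with the largest differences (up to 3 where none was called), the first 3 genes of each cell type list and 2 genes on either side of the threshold each way. A second probe is given where it lies over 1 log2 unit away. Lox, Ltf and Il6 fall outside this rule and were chosen after their values were seen. Members, lists and rules were chosen with earlier results of these data known. The normalization and call rule were tested on simulated data. Promoter windows are from RefSeq, GRCm38.p6, matched by symbol.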

Additional observations from a re-analysis of the deposited data

Results flagged for a closer look

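The genes below passed the size rule in opposite directions in the gamma-group metastasis (against the unirradiated metastasis) and in the gamma-irradiated primary (against the unirradiated primary). They are those among the named genes; over all genes 30 did so, 9 higher in the metastasis and lower in the primary and 21 the other way. The baselines of the 2 comparisons differ, so opposite directions here are not opposite directions over the unirradiated primary. The difference between the 2 comparisons was not tested, since each RNA was measured once in each dye. SDs are over 2 dye orientations.

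Lower in the metastasis comparison and higher in the primary comparison were 7 genes. Cxcl11 stood at -2.81 ± 0.04 in the metastasis and 1.46 ± 0.00 in the primary, Cxcl10 at -2.29 ± 0.04 and 3.56 ± 0.30, and Cxcl9 at -1.97 ± 0.14 and 4.36 ± 0.02. The immunity-related GTPases Igtp and Iigp1 stood at -1.61 ± 0.13 and -1.46 ± 0.53 in the metastasis and at 4.77 ± 0.05 and 4.80 ± 0.05 in the primary; Iigp1 was not called in the metastasis with a normexp offset of 0 (-1.32), Agilent's processed ratio (-1.24) or the authors' value table (-1.25). Gbp6 stood at -1.92 ± 0.14 in the metastasis and 2.08 ± 0.04 in the primary. Ifng stood at -2.20 ± 0.06 in the metastasis and 1.16 ± 0.16 in the primary.

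Higher in the metastasis comparison and lower in the primary comparison were 4 genes. Sln stood at 3.40 ± 0.09 in the metastasis and -3.62 ± 0.13 in the primary, and Myl4 at 1.54 ± 0.10 and -1.78 ± 0.14. Car3 stood at 2.13 ± 0.28 in the metastasis and -1.62 ± 0.04 in the primary. Adm stood at 3.17 ± 0.02 in the metastasis and -1.29 ± 0.20 in the primary. Over the skeletal muscle list, whose genes include Sln, 1 of 21 rose in the metastasis and 18 of 26 fell in the primary.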

How the results depend on the processing

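Under the 14 alternatives, 0 of the 563 called genes turned its sign. Several alternatives could not show a turn: the changed filters, the larger size and the single orientations reuse the same values. A gene that a filter left out was not counted as turned. Agilent's ratio and the authors' value table hold nearly the same values. The count of 563 (320 higher, 243 lower) became 993 (621 and 372) with a normexp offset of 0, 1506 (1007 and 499) with Agilent's processed ratio, 1504 (1007 and 497) with the authors' value table, and 174 (115 and 59) at a size of at least 1.5. The other alternatives gave 433 to 675 calls. Genes called higher made up 56.8% of calls in the setting reported, 46.5% with median centring, 45.3% with ratios scaled between arrays and 66.9% with Agilent's ratio, and median centring moved the median of all genes to -0.12, from -0.03. Of 116 called genes that the rule names, 52 kept their call under the 13 alternatives that keep the size rule; 61 also reached 1.5 in both orientations, 34 of them among the 52. The filter on both channels took out 36 and Agilent's ratio 16, with Upk3b at -0.09, Fcer2a at 0.49 and Ms4a1 at 0.89, while leaving out background correction took out 1. The airway list's median ranged from 0.51 to 1.67, the ciliated from 0.87 to 2.58, the B cell from 0.65 to 1.23, the cardiac from 0.68 to 1.76, the adipocyte from 0.74 to 1.54, the neutrophil from -1.70 to -1.49, the mesothelial from -1.25 to -0.60 and the interferon from -0.93 to -0.51. The medians that changed sign were those of the mitosis, DNA replication, class II, smooth muscle and neuroendocrine lists, all within 0.15 of 0 in the setting reported. Dim genes limit the fold: 23 called genes had no signal well above background in the unirradiated metastasis. No paired analysis was possible because each group holds 1 RNA.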

Other observations

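The families below were picked after their values had been seen, so their counts describe these 2 RNAs and support nothing else. The 3 measured gasdermin C genes, which encode pore-forming proteins of epithelia, all rose in the gamma-group metastasis, where Gsdmc had log2 ratios over the primary of 2.33 and 2.52 against 0.60 and 0.84 in the unirradiated metastasis (difference 1.71 ± 0.04). Gsdmc2 rose by 1.51 ± 0.06 and Gsdmc3 by 1.55 ± 0.03. In the carbon-group metastasis none of the 3 was called, with a median of 0.52. Among 8 measured Sprr2 genes, close copies that encode cross-linked envelope proteins, Sprr2f (3.51 ± 0.01) and Sprr2h (1.79 ± 0.03) rose, and the median was 0.49. Of 16 genes of immunoglobulin chains, 4 rose: Ighg1 (3.15 ± 0.11), Iglv1 (1.31 ± 0.12), a kappa variable gene (1.21 ± 0.17) and Ighm (1.05 ± 0.01), whose other 2 measured probes gave -0.27 and 2.59. Jchain, which joins secreted IgM and IgA, was at -0.30 ± 0.08 and not called.

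Among 15 measured genes of the circadian clock, 3 rose, all of them outputs or repressors of the clock: Dbp had -0.32 and -0.15 in the gamma-group metastasis against -1.88 and -1.89 in the unirradiated one (1.65 ± 0.12), Tef rose by 1.22 ± 0.06, with its other 3 measured probes between 0.10 and 0.64, and Nr1d1 by 1.14 ± 0.06, with its other 2 at -0.21 and 0.09. Hlf (0.91 ± 0.03), Per3 (0.83 ± 0.18) and Nr1d2 (0.81 ± 0.04) lay just under the threshold, while Arntl, the activator that peaks opposite to them, was at -0.37 ± 0.09. The repressor genes Cry1 (-0.39, the lowest of the family) and Cry2 (0.09) were not called either, and the family's median was 0.40. In the carbon-group metastasis, set against the same unirradiated RNA, 3 of 15 rose too, with a median of 0.63. The hour of sampling is not given in the sources used here.

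Receptors of myeloid cells fell in several families at once. Of 7 measured Clec4 lectin receptors 6 fell, with a median of -1.20, led by Clec4d (1.57 and 1.40 in the gamma-group metastasis against 3.16 and 3.099 in the unirradiated one). Of 9 paired receptors of the Pilr, Lilr, Sirpb and Pir families 7 fell, led by Sirpb1a (-1.70 ± 0.07). The acute-phase proteins Saa3 (-1.504 ± 0.01) and Saa1 (-1.35 ± 0.02) fell as well, and Saa2 was at -0.98 ± 0.03. Of 8 measured Ly49 receptors only Klra17 (-2.20 ± 0.07) and Klra2 (-1.85 ± 0.10) fell, and the other members lay between -0.34 and -0.03. The carbon-group metastasis, set against the same unirradiated RNA, shared these falls. There 5 of 7 Clec4 genes, 8 of 9 paired receptors, 3 of 3 serum amyloid A genes and 2 of 8 Ly49 receptors fell.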
